A study of Caenorhabditis elegans with 24 samples.

Results

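The comparison described here is that of uninjured worms 48 h and 8 h after a mock treatment, which follows whole animals through early adulthood without trauma. It rests on 8 of the 24 libraries of the series, 4 at 8 h and 4 at 48 h, taken as every library that the labels place in these groups. The worms were Caenorhabditis elegans of strain N2, wild type by the labels, kept at 25 °C under RNAi of cdc-25.1. This gene encodes a phosphatase of the cell cycle, and the study used its RNAi to make worms sterile. Whether these worms had no progeny was not tested. By the labels every group carried that knockdown. Legends of the study name another strain, CF512, which is sterile at this temperature without RNAi, for plots of this time course. The labels were followed, and which strain was sequenced was not settled, a limit on every germline, sperm, embryo and cdc-25.1 value below. On day 1 of adulthood the control worms were washed and spun like the injured worms but were not agitated, and poly(A) RNA of whole worms was sequenced after 8, 48 or 96 h. Values of the 4 control libraries at 96 h and of the injured libraries at 8 and 48 h, whose worms had received blunt force trauma on day 1, are set beside the comparison at the end. Each library pooled many worms, so no value belongs to a single animal. The labels call the 4 libraries of a group biological replicates. The adjusted p-values rest on the spread between libraries within all 6 groups of the series, estimated together, and not on these groups alone.

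By day 1 the worm has completed its last molt, its somatic cells no longer divide, and the germ line is the tissue in which cells still enter the cell cycle and meiosis. In the first days of adulthood the intestine secretes vitellogenins, the yolk lipoproteins, which oocytes take up, while the hypodermis maintains a collagen cuticle. Oocytes are loaded with maternal RNA and with RNA-binding proteins that hold it silent until fertilization. Heat shock proteins, the proteasome and the insulin and FOXO pathway are the best known of the systems that keep proteins intact in the adult and that are linked to the rate of ageing in this species.

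Expression was measured as RPKM, reads per kilobase of exon scaled to the mapped reads of the library. Low RPKM values rise in steps of a single read, and these steps gave an estimate of the depth of 20575000 to 27325000 reads in 7 of the 8 libraries. The estimate is rough, since 39.3 to 43.5% of the low values of these libraries fell within 0.1 of a whole read. In control 48 h library 4 the share was 28%, and its depth was not recovered. In library 4 at 48 h, 52.2% of reads lay on rRNA genes and an rRNA pseudogene, against 9.53% in control 48 h library 2 and 1.45 to 2.27% in the other 6. Reads spent on rRNA lower the RPKM of all other genes, so each library was divided by its median-of-ratios factor, which was 0.488 in control 48 h library 4 and 0.889 to 1.17 in the other 7. Levels below are scaled RPKM, given as mean ± SD (n = 4) or by library in the order 1 to 4. Changes are 48 h minus 8 h on the log2(scaled RPKM + 0.5) scale, which understates the change of genes of low level. Their standard error comes from the fit to all 24 libraries, so it can differ from the scatter of the libraries printed beside it.

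The labels name whole worms. Tested markers of intestine, body wall muscle, pharyngeal muscle, neurons and coelomocytes were present above a mean RPKM of 1. So were those of hypodermis, somatic gonad, germ line and oocytes, apart from the hypodermis marker rol-6. The level of rol-6 was low, and it was tested in 16 of the 18 alternative settings. The pharyngeal muscle marker ceh-22 was not tested, since it did not reach an RPKM of 1 in 4 libraries. Sperm markers were near the floor, with a mean log2 level of 0.56 to 1.05 at 8 h and 0.57 to 1.46 at 48 h over the 3 tested. Among 5 early embryo markers, med-1 was listed at 0 in 2 of the libraries at 48 h and ceh-51, a homeobox gene of the early embryo, measured 10.6, 12.7, 8.96 and 7.18 in the libraries at 8 h and 3.20, 1.49, 3.78 and 3.13 at 48 h. The gene that the labels name as knocked down, cdc-25.1, measured 61.2, 45.1, 25.4 and 18.2 in the libraries at 8 h and 36.5, 18.6, 9 and 30.1 at 48 h, a spread wider than the difference between the times (log2 change -0.68 ± 0.53, adjusted p = 0.27; two-sided exact permutation p = 0.286). Reads from the bacterial double-stranded RNA and from the worm's own transcript were not told apart.

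Most of the features that passed the filter on level changed between 8 and 48 h in the scaled values. Of 14813 features tested, 9310 (62.9%) passed limma's moderated test at an adjusted p (Benjamini-Hochberg) under 0.05, 4764 (32.2%) upwards and 4546 (30.7%) downwards. A change of at least 2-fold was reached by 1708 risers (11.5%) and 1536 fallers (10.4%). The median change over all features tested was 0.07. In the unscaled values as deposited 7215 of 14813 features passed, and without the filter 9730 of 22747, a minority in each. Without control 48 h library 4 the counts were 4493 higher (30.3%) and 4471 lower (30.2%) of 14811. In the values as deposited, without scaling, the median of all features was lower by 0.16, at -0.09, and the split of the calls was 2778 higher against 4437 lower, 38.5% of them upwards in place of 51.2%. Where the count of risers or fallers in a gene group below changed by more than 1.5 times without the scaling or without library 4, that count follows it. The list counts below are to be read against the shares of 32.2% and 30.7% and the median of 0.07. The libraries of the 2 times did not overlap in 60.3% of all features tested, so non-overlap of a named gene was common by itself. The filter asked for an RPKM of at least 1 in 4 libraries. A gene below 1 at one time can pass it through libraries where it is high, which favours a change in that direction.

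**Figure D1:**
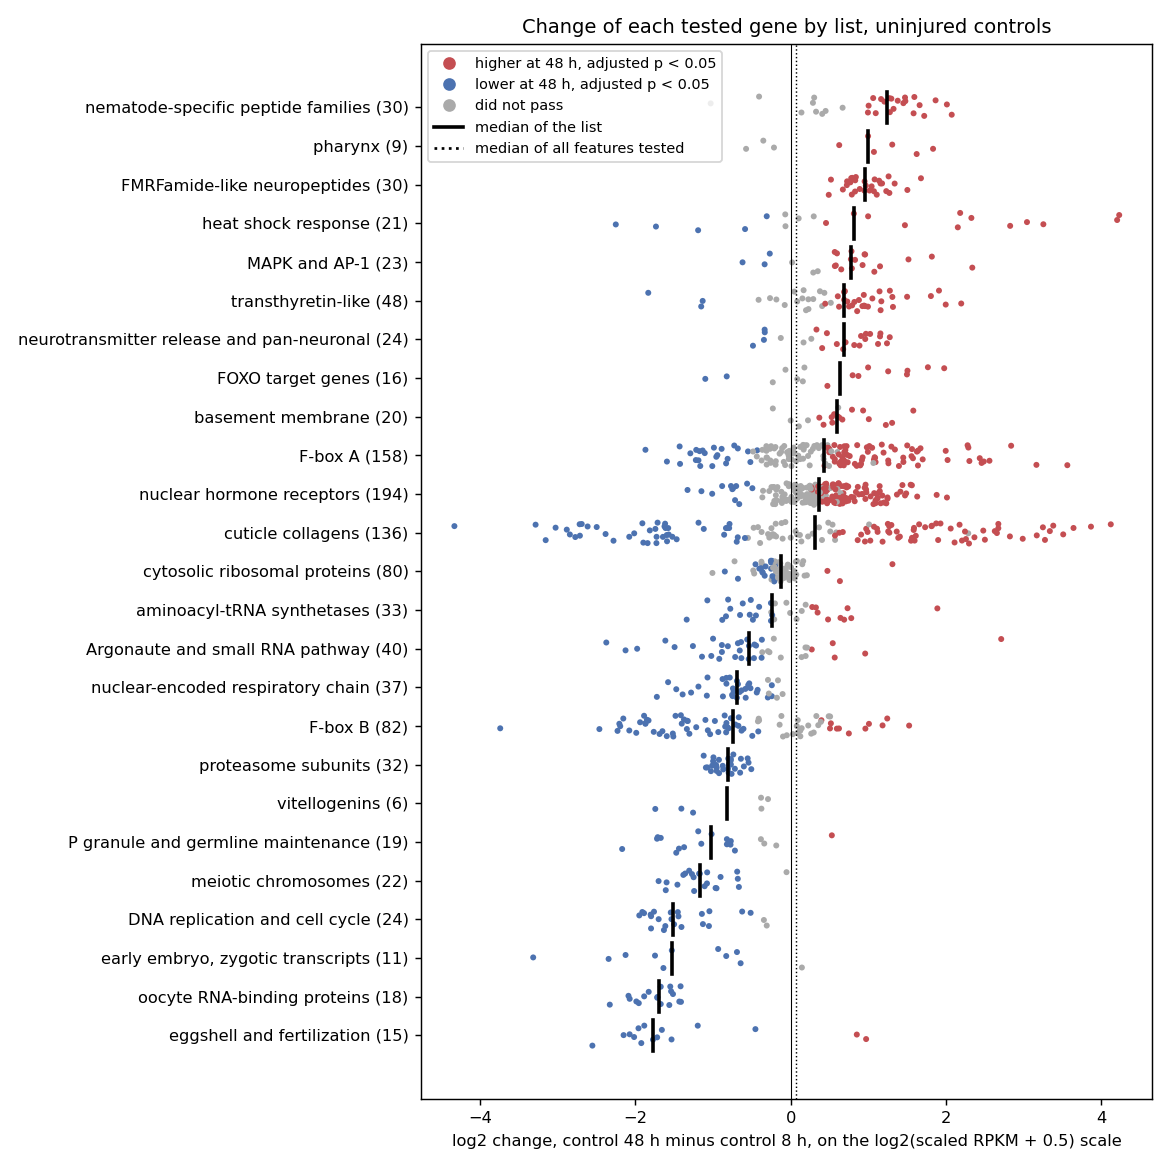
Change of each tested gene between 8 and 48 h in uninjured controls, in 25 gene lists ordered by their median. Each point is a gene, placed by its log2 change (48 h minus 8 h), red where higher and blue where lower at an adjusted p below 0.05, and grey where it did not pass. The short black bars are list medians and the dotted line is the median of all features tested, 0.07; the number after each name counts the genes tested. The eggshell, oocyte and replication lists sit on the left with medians from -1.77 to -1.52, and the neuropeptide, pharynx and nematode-specific peptide lists on the right with medians from 0.96 to 1.24.

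Transcripts of the germ line and of maturing oocytes fell together. All 18 oocyte RNA-binding protein genes tested were lower at 48 h, each by at least 2-fold, with changes from -2.33 to -1.41 and a median of -1.69. The zinc finger protein gene oma-2, needed for oocyte maturation, measured 268, 366, 348 and 234.6 in the libraries at 8 h and 66.9, 63.3, 35.5 and 81.2 at 48 h. For oma-2 the log2 change was -2.33 ± 0.27 (adjusted p = 1.5e-07). The 4 libraries at 48 h lay far below the 4 at 8 h, and within 48 h library 3 was lowest and library 4 highest. The same order of libraries held for pos-1, which encodes a maternal zinc finger protein of the early embryo and measured 514, 672, 612 and 441 in the libraries at 8 h and 149, 133, 87.0 and 164 at 48 h. For pos-1 the log2 change was -2.09 ± 0.24 (adjusted p = 1.7e-07). The PUF-family repressor gene puf-11 went from 145 ± 24.8 to 36.9 ± 9.75 and car-1, which encodes an RNA-binding protein of germline granules, from 355 ± 56.0 to 121 ± 22.3.

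Genes of the eggshell and of fertilization fell in 13 of 15 cases (median -1.77), and the other 2 rose. The chondroitin proteoglycan gene cpg-3 measured 272, 356, 329 and 208 in the libraries at 8 h and 53.5, 40.6, 35.8 and 69.6 at 48 h and had the largest fall of the list (log2 change -2.55 ± 0.25, adjusted p = 2.1e-08), 5.84-fold lower on the means. The chitin synthase gene chs-1 fell from 80.2 ± 18 to 19.7 ± 5.51, gna-2, which makes a chitin precursor, from 54.6 ± 10.3 to 15.8 ± 4.12, and egg-1, a receptor gene of the oocyte surface, from 192 ± 46.2 to 43.9 ± 15.3. Against them stood perm-2 and perm-4, also of the eggshell list, which rose from 2257 ± 237 to 4065 ± 271 and from 2411 ± 243 to 4725 ± 420.2. The libraries of perm-2 did not overlap between the times, with 2442, 2008, 2102 and 2478 in the libraries at 8 h and 4275, 4323, 3819 and 3844 at 48 h.

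The P granule and germline maintenance list had 15 of 19 members lower and 1 higher, with a median of -1.02. The gene pgl-3, which encodes a scaffold protein of these perinuclear germ granules, measured 54.4, 68, 65.3 and 42.2 in the libraries at 8 h and 13.4, 12, 9.06 and 15.2 at 48 h. For pgl-3 the log2 change was -2.17 ± 0.20 (adjusted p = 5.4e-09). The germline helicase genes glh-2 and glh-4 fell from 50.3 ± 7.48 to 17.7 ± 1.86 and from 34.5 ± 5.65 to 13.1 ± 2.82, and gld-3, a regulator of germline RNA, from 66.4 ± 12.2 to 20.1 ± 4.70. The member that rose was mes-3, a gene of germline chromatin silencing (from 43.6 ± 2.83 to 63.3 ± 5.14, log2 change 0.53 ± 0.10, adjusted p = 1.1e-04), and that rise was not called in the values as deposited.

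Meiotic chromosome genes were lower in 21 of 22 cases (median -1.17) and none was higher. The gene him-3, for a component of the meiotic chromosome axis, measured 46.6, 56.3, 56.7 and 47.2 in the libraries at 8 h and 17.6, 14.4, 12.56 and 18.1 at 48 h (log2 change -1.70 ± 0.21, adjusted p = 4.6e-07), and its relative htp-2 fell from 38.4 ± 4.06 to 15.2 ± 1.49. The X chromosome pairing gene him-8 fell from 28.8 ± 4.38 to 10.8 ± 1.92 and dsb-1, needed for meiotic double-strand breaks, from 31 ± 5.41 to 9.92 ± 2.31. DNA replication and cell cycle genes were lower in 22 of 24 cases and higher in none (median -1.52). The helicase subunit gene mcm-2 measured 102, 128, 119.4 and 90.0 in the libraries at 8 h and 29.3, 34.5, 20.2 and 32.8 at 48 h. For mcm-2 the log2 change was -1.91 ± 0.20 (adjusted p = 5.3e-08). The sliding clamp gene pcn-1 fell from 487 ± 78.2 to 143 ± 37.7, the ribonucleotide reductase gene rnr-1 from 186 ± 29.8 to 55.4 ± 12.5, and psf-1 of the replicative helicase complex from 55.5 ± 9.60 to 14 ± 2.52.

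Argonaute and small RNA pathway genes were lower in 26 of 40 cases and higher in 5, 2 of them in the values as deposited. The Piwi-family Argonaute gene prg-2 fell from 28 ± 5.43 to 4.94 ± 0.597. The genes wago-1 and hrde-1, for Argonautes of germline silencing, fell from 121 ± 21.3 to 30.5 ± 6.54 and from 85.0 ± 16.8 to 27.5 ± 5.92. The largest rise of the list was that of rrf-2, an RNA-dependent RNA polymerase gene, which rose from 5.10 ± 0.742 to 36.1 ± 3.88 (log2 change 2.71 ± 0.13, adjusted p = 3.3e-13), 7.08-fold higher on the means. The gene sid-2, for a receptor that takes up double-stranded RNA in the intestine, rose from 17.7 ± 2.46 to 34.9 ± 4.75. Early embryonic transcripts, which are made after fertilization, were lower in 10 of the 11 tested of 19 listed (median -1.53). The transcript of pes-10 fell from 8.80 ± 1.11 to 0.463 ± 0.284 (log2 change -3.31 ± 0.20, adjusted p = 9.2e-12), sdz-28 from 30.9 ± 5.86 to 6.73 ± 1.57, and the T-box gene tbx-37 measured 2.18, 4.32, 2.81 and 2.28 in the libraries at 8 h and 0.383, 0.495, 0.375 and 0.717 at 48 h. Levels of most of these genes were low at both times. A gene near the floor can pass the filter (RPKM of at least 1 in 4 libraries) through the libraries at 8 h alone, which favours a fall. The gene tbx-37 was tested in 13 of the 18 alternative settings. How many members passed the filter in this way was not counted. None of the 20 major sperm protein genes tested of 35 passed limma's test in either direction, 1 rose without library 4, and 0 had an unadjusted p under 0.05 (median 0.17). Of 10 other sperm genes 5 rose, among them swm-1 (from 35.6 ± 5.21 to 81.1 ± 7.95) and try-5 (from 0.908 ± 0.441 to 3.16 ± 0.392), an inhibitor and an activator of sperm activation.

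The marker genes of the germ line moved with these groups. The 4 germline markers were lower at 48 h, with a mean log2 level per library of 5.68 to 6.08 at 8 h and 4.26 to 4.85 at 48 h. The 4 oocyte markers were also lower, at 7.20 to 7.85 and 4.88 to 6.12. By contrast 4 of 4 markers of the somatic gonad were higher, 2 in the values as deposited, at 2.40 to 2.62 and 3.20 to 3.46. In whole worms, fewer cells of a type and less RNA per cell cannot be told apart. Because levels are relative, a smaller share of germline RNA also raises the share of every other tissue, and the part of this in the rises below was not tested.

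Yolk genes fell in part. The 6 vitellogenins are made in the intestine, and vit-1, vit-3 and vit-4 were lower at 48 h while vit-2, vit-5 and vit-6, which had the higher levels, did not pass. The gene vit-1 (chromosome X, 7727889 to 7733168, plus strand) measured 718, 574, 724 and 806 in the libraries at 8 h and 207, 293, 156 and 202 at 48 h. For vit-1 the log2 change was -1.74 ± 0.43 (adjusted p = 0.0013). The gene vit-3 (chromosome X, 3567355 to 3572549, minus strand) measured 2791, 2374, 2764 and 2930.4 in the libraries at 8 h and 948, 1675, 729.5 and 1424 at 48 h. For vit-3 the log2 change was -1.26 ± 0.42 (adjusted p = 0.013). Without control 48 h library 3 that call was lost (adjusted p = 0.0516). Near it on the same strand, vit-4 (chromosome X, 3558769 to 3563965, minus strand) measured 2559.7, 2289.9, 2614 and 2599.8 in the libraries at 8 h and 892, 1373, 535 and 1229 at 48 h. For vit-4 the log2 change was -1.41 ± 0.42 (adjusted p = 0.0054). The libraries of the 2 times did not overlap for these 3 genes, and in each of them library 3 was lowest and library 2 highest at 48 h. The gene vit-2 measured 9234, 7560.4, 9202 and 10615 in the libraries at 8 h and 6150.4, 10997, 5058 and 7029 at 48 h (log2 change -0.38 ± 0.40, adjusted p = 0.42), with library 2 above the highest library at 8 h and library 3 lowest. The changes of vit-5 (log2 change -0.38 ± 0.38, adjusted p = 0.4) and vit-6 (log2 change -0.29 ± 0.41, adjusted p = 0.55) did not pass either. The genes vit-3, vit-4 and vit-5 are alike in sequence, and how reads shared by copies were assigned is not given in the sources used here, so values of single copies are uncertain. The oocyte yolk receptor gene rme-2 fell with the oocyte genes, measuring 212, 267, 264 and 169 in the libraries at 8 h and 57.8, 54.6, 30.5 and 76.8 at 48 h. For rme-2 the log2 change was -2.09 ± 0.27 (adjusted p = 8.4e-07). Against these, ceh-60, a homeobox gene needed for vitellogenin expression, rose from 5.83 ± 1.34 to 12.82 ± 1.33 (log2 change 1.09 ± 0.21, adjusted p = 8.7e-05).

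Cuticle collagens parted into risers and fallers. Of 136 tested of 179 listed, 59 were higher and 44 lower, and 51 and 36 of them moved by at least 2-fold, against 11.5% and 10.4% of all features. The median was 0.32, and over the alternative settings it lay between -0.45 and 0.45, so the list had no common direction. The largest rise among the 4 with the smallest p was that of col-183 (chromosome X, 13466643 to 13467764, minus strand), with 3.48, 2.24, 2.16 and 5.15 in the libraries at 8 h and 41.3, 54.6, 60.2 and 52.6 at 48 h. For col-183 the log2 change was 3.87 ± 0.28 (adjusted p = 1.4e-10). Of the other 3, col-50 rose from 0.252 ± 0.159 to 6.54 ± 0.593, col-33 from 0.781 ± 0.366 to 5.61 ± 1.52 and col-118 from 13 ± 0.823 to 32.2 ± 4.82. The largest of the 10 falls chosen below by size was that of col-165 (chromosome X, 4353618 to 4354852, plus strand), with 21.0, 30.8, 30.8 and 37.8 in the libraries at 8 h and 0.756, 0.878, 1.48 and 0.942 at 48 h (log2 change -4.33 ± 0.20, adjusted p = 1.3e-13), 29.7-fold lower on the means. Collagen genes dpy-17 and col-74 fell from 232 ± 30.5 to 35.5 ± 4.36 and from 27.5 ± 6.82 to 2.87 ± 0.308. The gene dpy-7, for a collagen of the annular furrows made in each molting cycle, measured 16.3, 17.1, 20.3 and 22.9 in the libraries at 8 h and 3.38, 2.32, 2.43 and 2.70 at 48 h (log2 change -2.61 ± 0.22, adjusted p = 2.1e-09), and col-19, the usual marker of the adult hypodermis, 426, 328, 326 and 357 in the libraries at 8 h and 117, 99.1, 108 and 107 at 48 h. For col-19 the log2 change was -1.73 ± 0.27 (adjusted p = 8.0e-06). All the collagens named in this paragraph had no overlap between the times, as had 60.3% of all features tested. Collagen genes are short and alike, and the split of shared reads among them is not known.

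**Figure D2:**
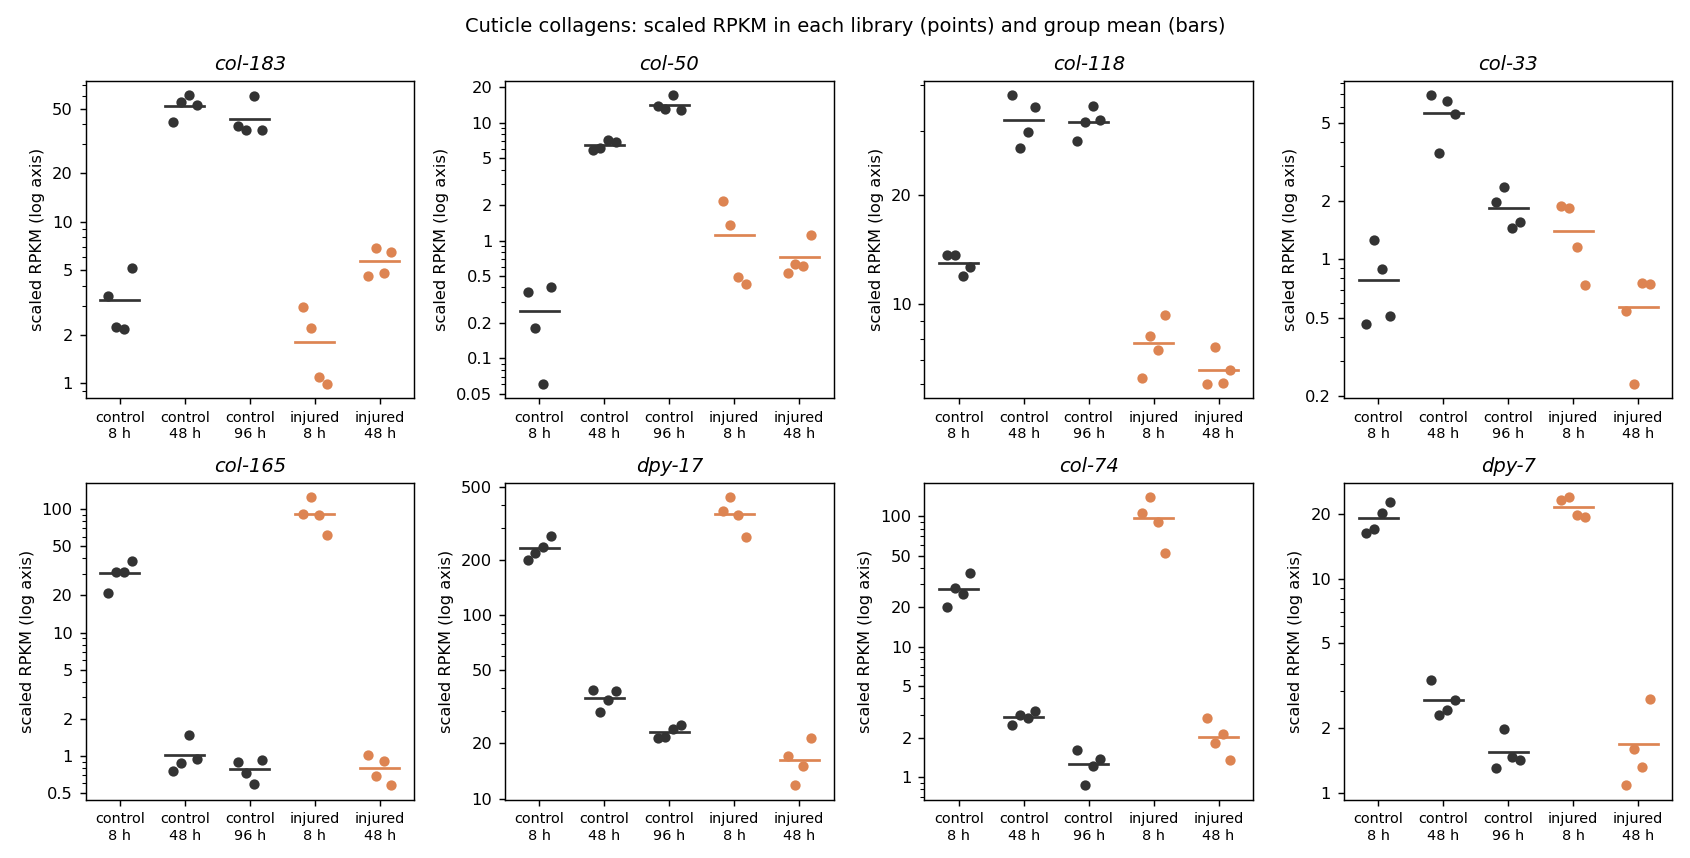
Scaled RPKM (log axis) of the 8 cuticle collagens named by smallest p, 4 higher (top row) and 4 lower (bottom row) at 48 h, in each library (points) with the group mean (bars), for uninjured controls at 8, 48 and 96 h (black) and injured worms at 8 and 48 h (orange). In col-183 the controls spanned 2.16 to 5.15 at 8 h and 41.3 to 60.2 at 48 h, and in col-165 they spanned 21.0 to 37.8 and 0.756 to 1.48.

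Genes that act in molting were mixed, with 9 of 24 higher and 6 lower, against 1 higher and 6 lower in the values as deposited. The molting gene mlt-8 fell from 28.3 ± 4.19 to 7.53 ± 0.821 (log2 change -1.84 ± 0.15, adjusted p = 9.5e-10), and nhr-23, the nuclear receptor gene that drives the molting cycle, from 16.2 ± 1.77 to 7.07 ± 1.09. The hypodermis markers were lower in 3 of 5 cases and higher in 1, rol-6, whose level was low. The mean log2 level of the 5 markers per library was 4.19 to 4.39 at 8 h and 3.16 to 3.61 at 48 h. Hedgehog-related and patched-related genes, many of them hypodermal, were higher in 19 of 58 cases and lower in 16, against 13 and 15 in the values as deposited. The hedgehog-related genes grl-15 and wrt-1 fell from 13.6 ± 3.45 to 1.90 ± 1.23 and from 11.7 ± 2.33 to 2.76 ± 1.02, and ptr-22 rose from 2.32 ± 0.201 to 8.24 ± 0.967.

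Basement membrane genes rose and none fell, 14 of 20 in the scaled values and 5 of 20 in the values as deposited (medians 0.60 and 0.41). The laminin beta chain gene lam-1 measured 37, 39.3, 37.7 and 39.1 in the libraries at 8 h and 115, 137, 93.7 and 120.3 at 48 h (log2 change 1.58 ± 0.18, adjusted p = 1.2e-07), the gamma chain gene lam-2 rose from 25.9 ± 1.13 to 62.3 ± 13.2, and the alpha chain genes lam-3 and epi-1 from 11.3 ± 1.34 to 28.8 ± 4.45 and from 13.4 ± 0.636 to 28.1 ± 6.77. In the body wall muscle list 10 of 34 members were higher, 6 in the values as deposited, and 4 lower, 7 in the values as deposited. The share of risers in that list, 29.4%, was below the 32.2% of all features. The gene unc-112, for a kindlin of muscle attachments, rose from 33.6 ± 2.37 to 69.0 ± 5.34, the alpha integrin gene pat-2 from 13.9 ± 2.04 to 29 ± 3.76, and the actin gene act-2 fell from 884 ± 102 to 420.2 ± 82.1. Pharynx genes rose in 6 of 9 cases and fell in none (median 1.00). The gene pha-4, for the FoxA factor that specifies the pharynx, measured 9.07, 8.52, 8.21 and 8.58 in the libraries at 8 h and 32.9, 38.8, 27.5 and 29.5 at 48 h (log2 change 1.83 ± 0.13, adjusted p = 7.1e-11), and the troponin T gene tnt-4 rose from 2.30 ± 0.316 to 6.51 ± 1.49. Among the 19 intestinal genes 10 were higher, 6 in the values as deposited, and none lower, with the GATA factor gene elt-2 at 7.86, 7.94, 7.24 and 9.01 in the libraries at 8 h and 17.6, 15.9, 20.2 and 17.2 at 48 h (log2 change 1.1 ± 0.18, adjusted p = 1.7e-05), the esterase gene ges-1 going from 31.2 ± 5.05 to 64.6 ± 10.4 and the peptide transporter gene pept-1 going from 5.36 ± 0.521 to 11.1 ± 1.08. The intestine markers act-5 (log2 change -0.31 ± 0.17, adjusted p = 0.11) and vha-6 (log2 change -0.33 ± 0.21, adjusted p = 0.17) did not pass.

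Transcripts of the nervous system were for the most part higher at 48 h. All 30 FMRFamide-like neuropeptide genes tested of 31 rose, 14 of them by at least 2-fold, with changes from 0.49 to 1.68 and a median of 0.96. The count was 27 without library 4 and 26 in the values as deposited. The neuropeptide gene flp-15 measured 19.4, 14, 17.3 and 18.4 in the libraries at 8 h and 43.3, 52.3, 50.6 and 52.4 at 48 h (log2 change 1.5 ± 0.12, adjusted p = 1.3e-09), flp-16 rose from 12.63 ± 1.30 to 31.1 ± 1.38, flp-21 from 6.59 ± 2.13 to 15.6 ± 1.31 and flp-25 from 2.90 ± 0.877 to 10.2 ± 1.76. Genes of neurotransmitter release and pan-neuronal genes rose in 17 of 24 cases, 11 in the values as deposited, and fell in 4 (median 0.69). The gene rab-3, for the GTPase of synaptic vesicles, measured 6.03, 6.24, 5.36 and 8.37 in the libraries at 8 h and 13.1, 10.8, 15.1 and 13.2 at 48 h (log2 change 0.96 ± 0.14, adjusted p = 2.8e-06), and unc-13 and unc-10, which prime vesicles for release, rose from 2.23 ± 0.344 to 6.15 ± 1.21 and from 1.77 ± 0.252 to 4.59 ± 0.924. The synaptojanin gene unc-26 fell from 14.8 ± 0.732 to 10.5 ± 0.576. Of the 6 neuron markers 4 were higher, 2 in the values as deposited, and unc-119 was not (log2 change -0.13 ± 0.10, adjusted p = 0.28).

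Insulin-like peptide genes rose in 15 of 32 cases and fell in 2, 1 without library 4. The peptide gene ins-19 rose from near the floor, with 0.6, 0.666, 1.03 and 2.13 in the libraries at 8 h and 11.7, 13.9, 20.1 and 11.6 at 48 h (log2 change 3.26 ± 0.36, adjusted p = 8.0e-08), ins-20 from 0.409 ± 0.309 to 3.84 ± 1.08 and ins-10 from 1.70 ± 0.685 to 6.62 ± 2.50, and ins-34 fell from 22.4 ± 2.41 to 12.3 ± 1.54. In the insulin and FOXO pathway 3 of 13 genes were higher, none in the values as deposited, and 5 lower. The PI3-kinase gene age-1 fell from 20.7 ± 2.98 to 12.65 ± 1.5 (log2 change -0.68 ± 0.16, adjusted p = 9.2e-04). Among FOXO target genes 9 of 16 were higher, 5 in the values as deposited, and 2 lower. The target gene dod-6 rose from 82.6 ± 23 to 319 ± 38.5, the linker histone gene hil-1 from 13.4 ± 2.51 to 38.7 ± 6.56 and the non-coding RNA tts-1 from 803 ± 151 to 2323 ± 699, and gst-7 fell from 190.4 ± 18.1 to 88.8 ± 10.7. The gene sod-3, for the manganese superoxide dismutase most used as a FOXO reporter, measured 20.2, 14.6, 12 and 17.1 in the libraries at 8 h and 15.6, 16.2, 22 and 18.4 at 48 h and did not pass (log2 change 0.18 ± 0.23, adjusted p = 0.52).

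The genes the study followed after trauma were also measured in these uninjured worms. The gene fos-1 (chromosome V, 6003601 to 6016087, plus strand), for a subunit of the transcription factor AP-1, measured 16.3, 15.4, 16.5 and 20.7 in the libraries at 8 h and 33.4, 39.8, 37.5 and 36.2 at 48 h. For fos-1 the log2 change was 1.08 ± 0.18 (adjusted p = 2.3e-05). The gene vhp-1 (chromosome II, 5323276 to 5340829, plus strand), for a phosphatase that dampens MAP kinase signaling, measured 40.3, 39.3, 39.8 and 50.01 in the libraries at 8 h and 107, 140.3, 122.003 and 119.2 at 48 h. For vhp-1 the log2 change was 1.52 ± 0.19 (adjusted p = 5.4e-07). The lysozyme gene lys-3 (chromosome V, 10282100 to 10283544, minus strand) measured 22.9, 21.7, 25 and 26.6 in the libraries at 8 h and 11.1, 8.04, 10.5 and 8.42 at 48 h. For lys-3 the log2 change was -1.30 ± 0.16 (adjusted p = 3.0e-07). For these 3 genes the libraries of the times did not overlap, and the two-sided exact permutation test over the 70 arrangements of 4 against 4 gave p = 0.0286 for each, the smallest value it can reach. The gene cat-2 (chromosome II, 257819 to 261074, plus strand), for the tyrosine hydroxylase of dopamine synthesis, was low at both times, with 0.976, 0.827, 0.563 and 0.780 in the libraries at 8 h and 1.13, 0.867, 0.767 and 0.738 at 48 h (log2 change 0.10 ± 0.20, adjusted p = 0.68; exact permutation p = 0.514). In the list of dopamine synthesis, transport and receptor genes 7 of 19 were higher, 4 in the values as deposited, and 3 lower. The vesicular monoamine transporter gene cat-1 rose from 0.488 ± 0.266 to 1.54 ± 0.131 and the receptor gene dop-5 from 0.683 ± 0.061 to 1.92 ± 0.322, while dop-4 fell from 3.15 ± 0.343 to 1.41 ± 0.152 and the catechol O-methyltransferase gene comt-2 from 2.10 ± 0.298 to 0.309 ± 0.342.

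Other genes of MAP kinase signaling also rose. In the list of 23 genes of MAP kinases and AP-1, 17 were higher, 11 in the values as deposited, and 3 lower (median 0.78). The gene tir-1, for the SARM adaptor upstream of p38, measured 13.2, 13.9, 14.2 and 17 in the libraries at 8 h and 72.2, 83.2, 70.3 and 77.0 at 48 h (log2 change 2.34 ± 0.19, adjusted p = 9.6e-10), 5.19-fold higher on the means with no overlap. The gene cebp-1, for a bZIP factor of axon repair, rose from 43.6 ± 4.47 to 155 ± 17.8 and the p38 gene pmk-3 from 17 ± 2.37 to 38.2 ± 1.52. The ERK gene mpk-1, which also acts in the germ line, fell from 50.2 ± 4.35 to 32.5 ± 2.46.

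Heat shock genes rose in 12 of 21 cases and fell in 5, and the members moved far in both directions. The gene hsp-16.2, for a small heat shock protein used as a stress reporter, measured 26.4, 21.4, 20.5 and 28.5 in the libraries at 8 h and 234.8, 217, 252 and 228 at 48 h (log2 change 3.25 ± 0.22, adjusted p = 5.7e-11), 9.64-fold higher on the means, and hsp-70 rose from 4.11 ± 0.938 to 31.8 ± 2.96. F44E5.4 and F44E5.5, a head-to-head pair of HSP70 genes, were among the 10 largest rises and are described below. Among the members that fell, sip-1, for a small heat shock protein of oocytes and embryos, measured 1304, 1686, 1379 and 903 in the libraries at 8 h and 285, 275, 175 and 386 at 48 h. For sip-1 the log2 change was -2.25 ± 0.25 (adjusted p = 1.1e-07). The co-chaperone gene sti-1 fell from 114 ± 16.3 to 49.6 ± 8.07 and hsp-12.1 from 18 ± 0.620 to 5.26 ± 1.68. In the unfolded protein response of the endoplasmic reticulum 8 of 19 genes were higher, 3 in the values as deposited, and 2 lower, 1 in the values as deposited. Means at 8 and 48 h were, for the GRP94 gene enpl-1, 228 ± 12 and 467 ± 65.7, for xbp-1, the transcription factor gene of the response, 209 ± 15.9 and 360.02 ± 8.03, and for arf-1.1 3 ± 0.444 and 14.1 ± 2.37. In the mitochondrial response 6 of 12 were lower and 2 higher, 1 in the values as deposited. The chaperonin gene hsp-60 measured 121, 145, 148 and 108 in the libraries at 8 h and 41.8, 37.3, 32.3 and 40.1 at 48 h. For hsp-60 the log2 change was -1.76 ± 0.16 (adjusted p = 8.0e-09). Among genes of superoxide dismutase, catalase and thioredoxin systems 5 of 20 were higher, 3 in the values as deposited, and 8 lower. The extracellular superoxide dismutase gene sod-4 rose from 17.9 ± 4.01 to 46.4 ± 5.28, and the mitochondrial gene sod-2 fell from 103 ± 9.42 to 43.5 ± 5.20 with the peroxiredoxin genes prdx-2 (from 666 ± 19.2 to 423 ± 33.4) and prdx-3 (from 132 ± 3.12 to 69.5 ± 7.55).

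Metal response genes were higher in 8 of 15 cases, 4 in the values as deposited, and lower in 4. The largest change was that of numr-1, a gene induced by heavy metals, with 10.1, 10.7, 10.8 and 12.2 in the libraries at 8 h and 141, 141, 160.3 and 153 at 48 h. For numr-1 the log2 change was 3.71 ± 0.30 (adjusted p = 9.7e-10). Autophagy genes were higher in 11 of 28 cases and lower in 6, against 4 and 6 in the values as deposited. The cargo receptor gene sqst-1, the worm p62, measured 70.8, 66.2, 68.8 and 88.7 in the libraries at 8 h and 249.6, 301, 239.7 and 286 at 48 h (log2 change 1.87 ± 0.21, adjusted p = 1.4e-07), the Beclin gene bec-1 rose from 35.4 ± 1.25 to 57.7 ± 3.92, and epg-3 fell from 47.8 ± 3.88 to 28.2 ± 2.71. In the hypoxia list 4 of 9 were higher and 3 lower, against 1 and 2 in the values as deposited.

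Immune effector genes changed in both directions. In the lectin, caenopore, epidermal and p38 lists the share of risers, 32.4 to 33.3%, was near the 32.2% of all features. Their share of fallers was 5.56 to 28.6%, against 30.7%. Lysozymes rose in 6 of 12 cases and fell in 2. The intestinal lysozyme gene lys-7 had the highest level of the list at 48 h, with 503, 303, 416 and 671 in the libraries at 8 h and 3193, 3958, 4514 and 4117 at 48 h (log2 change 3.11 ± 0.24, adjusted p = 4.4e-10), and ilys-2 rose from 3.24 ± 0.515 to 23.8 ± 0.420. C-type lectin genes were higher in 33 of the 102 tested of 264 listed and lower in 21, with clec-258 rising from 3.33 ± 1.18 to 29.5 ± 5.4 and clec-87 and clec-91 falling from 687 ± 137 to 159 ± 38.8 and from 208 ± 42.4 to 52.8 ± 10.2. Caenopore genes, which encode pore-forming antimicrobial peptides, were higher in 7 of 21 cases and lower in 6, against 4 and 6 in the values as deposited. The caenopore gene spp-20 rose from 2.09 ± 0.284 to 11.9 ± 2.22 and spp-17 fell from 963 ± 163 to 311 ± 61.9. The epidermal antimicrobial peptide list had 12 of 36 members higher, 5 in the values as deposited, and 2 lower, with fipr-24 going from 3.17 ± 1.01 to 30.4 ± 12.4 and nlp-33 going from 59.4 ± 14.9 to 23.4 ± 13.8. Without the libraries over 5% rRNA nlp-33 did not pass (adjusted p = 0.0965). Of 18 genes of the p38 pathway and infection response 6 were higher and 5 lower, against 5 and 6 in the values as deposited. The infection response gene irg-2 rose from 11.43 ± 1.21 to 60.4 ± 5.04 and irg-1 from 6.32 ± 2.21 to 24.8 ± 2.63, while C32H11.4 fell from 136 ± 17 to 21.9 ± 8.65.

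Genes of fatty acid breakdown were lower more often than higher. In the fatty acid oxidation and glyoxylate list 19 of 38 fell and 6 rose, 3 in the values as deposited. The gene acdh-1 (chromosome I, 6497436 to 6499560, plus strand), for an acyl-CoA dehydrogenase whose expression reports vitamin B12 status, measured 313, 247, 361 and 333 in the libraries at 8 h and 29.5, 17.2, 14.8 and 11.6 at 48 h (log2 change -4.13 ± 0.48, adjusted p = 2.1e-07), 17.2-fold lower on the means. The enoyl-CoA hydratase gene ech-6 measured 223, 213, 246 and 223 in the libraries at 8 h and 81.5, 59.0, 60.4 and 76.5 at 48 h (log2 change -1.71 ± 0.10, adjusted p = 1.1e-11), the thiolase gene acaa-2 fell from 159 ± 9.32 to 70.6 ± 6.90, and nhr-68, a nuclear receptor gene known to activate acdh-1, from 28.7 ± 5.68 to 11 ± 1.2. The carnitine palmitoyltransferase gene cpt-3 rose from 4.27 ± 1.21 to 19 ± 1.41. Among synthesis and desaturation genes 5 of 22 rose, 3 in the values as deposited, and 3 fell, with the desaturase genes fat-5 going from 200.4 ± 21.0 to 432 ± 22.5 and fat-6 going from 554 ± 69.97 to 1045 ± 67.8. Lipases were higher in 7 of 23 cases (30.4%, against 32.2% of all features) and lower in 5 (21.7%, against 30.7%). Fatty acid binding protein genes fell in 5 of 9 cases, with lbp-8 going from 7.16 ± 1.21 to 1.49 ± 0.484, and lbp-2 rose (from 818 ± 122.1 to 1539 ± 240.1). Cathepsin-type and aspartic protease genes were higher in 8 of 23 cases and lower in 4, with cpr-3 going from 62.1 ± 6.44 to 148 ± 18.1 and asp-14 going from 89.3 ± 9.07 to 46.1 ± 12.4.

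Genes of the proteasome and of the respiratory chain fell. All 32 proteasome subunit genes were lower, against 30.7% of all features, with changes from -1.12 to -0.51 and a median of -0.80. The count was 32 also without library 4 and in the values as deposited. The core subunit gene pas-2 measured 175, 199, 197 and 169 in the libraries at 8 h and 89.6, 79.5, 91.1 and 90.9 at 48 h (log2 change -1.07 ± 0.11, adjusted p = 2.2e-08), a fall of 2.11-fold with little spread, pas-4 fell from 111 ± 11.1 to 55.5 ± 6.33 and pbs-6 from 148 ± 13.8 to 72.3 ± 4.23. Of 37 nuclear genes of the respiratory chain 32 were lower and none higher (median -0.69), with the ATP synthase beta subunit gene atp-2 at 759.9, 824, 782 and 701 in the libraries at 8 h and 386, 394, 282 and 410.3 at 48 h (log2 change -1.07 ± 0.12, adjusted p = 7.4e-08) and the cytochrome reductase gene ucr-2.3 going from 64.8 ± 8.77 to 19.2 ± 1.81. Transcripts of the mitochondrial genome itself were lower in 3 of 11 cases, 5 without library 4 and 6 in the values as deposited.

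Genes of translation were mixed. The 80 cytosolic ribosomal protein genes tested had a median change of -0.13, with 18 lower, 10 in the values as deposited, and 3 higher, 1 in the values as deposited. The largest changes that passed were in members of gene pairs. One, rpl-24.2, rose from 78.6 ± 3.40 to 197 ± 24 (log2 change 1.31 ± 0.12, adjusted p = 3.7e-09). Of another pair, rpl-11.1 fell from 679.5 ± 64.8 to 377 ± 31.1 and rpl-11.2 rose from 543 ± 57.0 to 752 ± 28.5, a rise that was not called in the values as deposited (adjusted p = 0.257), and how reads shared by these copies were split is not known. Of 33 aminoacyl-tRNA synthetase genes 16 were lower and 9 higher, 4 in the values as deposited. The seryl-tRNA synthetase gene sars-1 measured 94.0, 98.2, 99.5 and 97.1 in the libraries at 8 h and 341, 360.2, 344 and 405 at 48 h (log2 change 1.89 ± 0.14, adjusted p = 1.6e-10), and the mitochondrial gene nars-2 fell from 14 ± 1.71 to 5.32 ± 1.45. Histone genes, many of them near-identical copies and without poly(A) tails in part, were higher in 21 of 56 cases and lower in 9, with his-74 going from 191 ± 25 to 63.9 ± 8.55 and his-60 going from 8.53 ± 1.05 to 24.8 ± 3.11.

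Cytochrome P450 genes were higher in 26 of 59 cases and lower in 15, with cyp-35B1 going from 6.27 ± 0.815 to 41.1 ± 6.44 and cyp-35A3 going from 12.3 ± 4.26 to 2.86 ± 0.541. UDP-glucuronosyltransferase genes were higher in 22 of 59 cases, 14 in the values as deposited, and lower in 8, 4 without library 4. The gene ugt-57 rose from 0.512 ± 0.069 to 7.30 ± 0.343 (log2 change 2.95 ± 0.14, adjusted p = 1.6e-13). Among glutathione S-transferase genes 10 of 42 were higher, 6 in the values as deposited, and 12 lower. The gene gst-24 rose from 26.9 ± 5.83 to 97.7 ± 7.52 and gst-1 fell from 230.3 ± 17.5 to 125.7 ± 11.5. Nuclear hormone receptor genes were higher in 94 of 194 cases and lower in 12 (median 0.37), with 43 higher in the values as deposited. The receptor gene nhr-84 measured 7.67, 6.51, 6.84 and 8.43 in the libraries at 8 h and 30.2, 30.5, 30.9 and 32.9 at 48 h. For nhr-84 the log2 change was 2.01 ± 0.13 (adjusted p = 2.3e-11).

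The F-box families went in opposite directions. F-box proteins choose targets for ubiquitin ligases, and in this species they form large families. Of 158 F-box A genes tested 74 were higher, 46 in the values as deposited, and 24 lower (median 0.43). Of 82 F-box B genes 48 were lower and 11 higher, 6 in the values as deposited (median -0.74). Examples of the A family are fbxa-49 and fbxa-165, which rose from 0.464 ± 0.199 to 10.7 ± 0.971 and from 0.455 ± 0.257 to 7.92 ± 1.54. In the B family, fbxb-22 fell from 4.18 ± 0.310 to 0.369 ± 0.227 and fbxb-31 from 2.91 ± 0.501 to 0.246 ± 0.123. The gene fbxb-31 was tested in only 13 of the alternative settings. Genes this low can pass the filter through the libraries of the higher group alone, which favours a change in that direction. Members of either family that passed in this way were not counted. Over the alternative settings the median lay between 0.27 and 0.63 for F-box A and between -0.87 and -0.48 for F-box B. MATH and BATH domain genes were mixed, with 16 of 60 higher, 5 in the values as deposited, and 23 lower (median 0.02, or -0.15 in the values as deposited). Transthyretin-like genes rose in 29 of 48 cases and fell in 3, with ttr-51 at 1409, 965, 993 and 1351 in the libraries at 8 h and 4069, 3475, 4984 and 3878 at 48 h (log2 change 1.81 ± 0.19, adjusted p = 3.9e-08) and ttr-42 going from 117 ± 15 to 32.7 ± 5.78. Nematode-specific peptide family genes rose in 21 of 30 cases, 20 of them by at least 2-fold, and fell in none, and nspc-13 measured 32.1, 26.3, 29.2 and 32.5 in the libraries at 8 h and 118, 117, 181 and 106 at 48 h. For nspc-13 the log2 change was 2.07 ± 0.28 (adjusted p = 1.8e-06). The nspc genes are near-copies of each other. The abu and pqn genes, which encode glutamine-rich proteins, rose in 28 of 56 cases and fell in 6, with abu-14 rising from 4.03 ± 0.999 to 48.3 ± 9.52. Of the 48 long intergenic non-coding RNAs tested of 170 listed, 16 were higher and 1 lower. Their share of risers, 33.3%, was near the 32.2% of all features, and their share of fallers was 2.08%, against 30.7%. The RNA linc-22 rose from 5.96 ± 0.835 to 27.9 ± 2.76.

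The 10 largest rises among changed genes with a mean of at least 5 in the higher group and no overlap between the times were of several roles. Non-overlap by itself was common, at 60.3% of all features tested. The lipase-related gene lips-11 (chromosome II, 1108841 to 1111001, minus strand) measured 3.05, 4.63, 1.99 and 1.76 in the libraries at 8 h and 168, 111, 83.5 and 124 at 48 h. For lips-11 the log2 change was 5.22 ± 0.53 (adjusted p = 2.7e-08). The invertebrate-type lysozyme gene ilys-3 (chromosome IV, 2464456 to 2465443, plus strand) measured 0.366, 0.514, 0.533 and 0.554 in the libraries at 8 h and 19, 21.7, 17.9 and 13.2 at 48 h (log2 change 4.20 ± 0.23, adjusted p = 2.7e-12), 36.5-fold higher on the means. F44E5.4 (chromosome II, 11757107 to 11759311, minus strand) measured 18.3, 20.8, 25.7 and 29.6 in the libraries at 8 h and 374, 506, 393 and 523 at 48 h. For F44E5.4 the log2 change was 4.23 ± 0.24 (adjusted p = 3.3e-12). Its neighbour F44E5.5 (chromosome II, 11759662 to 11761861, plus strand) measured 5.95, 5.06, 2.18 and 1.80 in the libraries at 8 h and 63.9, 65.1, 82.5 and 72.3 at 48 h. For F44E5.5 the log2 change was 4.20 ± 0.32 (adjusted p = 2.9e-10). The pair is near-identical in sequence, so the division of reads between the copies is uncertain, but both stood clear of their 8 h libraries. The gene rab-11.2 (chromosome I, 11632983 to 11638491, minus strand), for a GTPase related to RAB-11 of recycling endosomes, measured 0.478, 0.131, 0.113 and 0.308 in the libraries at 8 h and 13, 13.3, 12.77 and 16 at 48 h. For rab-11.2 the log2 change was 4.26 ± 0.17 (adjusted p = 2.5e-14). The collagen gene col-73 (chromosome II, 4872098 to 4873129, minus strand) had the largest standard error of the 10, with 0.041, 0.303, 0.430 and 0.195 in the libraries at 8 h and 29.6, 20.9, 3.23 and 10.2 at 48 h. For col-73 the log2 change was 4.12 ± 0.63 (adjusted p = 7.6e-06).

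The other 4 have no gene symbol. F20E11.17 (chromosome V, 17468613 to 17469280, minus strand) measured 1.02, 1.58, 3.50 and 0.862 in the libraries at 8 h and 57.0, 60.4, 135 and 66.0 at 48 h (log2 change 5.20 ± 0.41, adjusted p = 5.9e-10). K09F6.13 (chromosome II, 2289114 to 2290301, plus strand) measured 4.90, 4.26, 4.09 and 6.68 in the libraries at 8 h and 111, 127, 135 and 128 at 48 h. For K09F6.13 the log2 change was 4.54 ± 0.17 (adjusted p = 8.3e-15). C25F9.16 (chromosome V, 19434387 to 19434901, plus strand) measured 0.813, 0.151, 0 and 0.924 in the libraries at 8 h and 15.5, 12.7, 16.4 and 14.5 at 48 h. For C25F9.16 the log2 change was 4.11 ± 0.29 (adjusted p = 1.1e-10). The level of F01G10.6 (chromosome IV, 10226328 to 10227634, minus strand) was 0.234, 0.313, 0.277 and 0.441 in the libraries at 8 h and 12.3, 11.8, 16.9 and 12 at 48 h. For F01G10.6 the log2 change was 4.07 ± 0.22 (adjusted p = 1.6e-12). The 4 genes lay below a scaled RPKM of 7 in each library at 8 h.

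The 10 largest falls included col-165 and acdh-1, described above. The cuticlin gene cut-3 (chromosome II, 8445169 to 8446831, minus strand), for a protein of the cuticle matrix, measured 23.6, 33.4, 34.4 and 53.4 in the libraries at 8 h and 1.77, 2.54, 3.28 and 3.24 at 48 h. For cut-3 the log2 change was -3.49 ± 0.24 (adjusted p = 5.9e-11). T05H10.3 (chromosome II, 8049024 to 8050577, minus strand), named mtre-1 in the annotation, measured 45.6, 65.5, 69.1 and 87.1 in the libraries at 8 h and 3.48, 2.72, 2.62 and 3.95 at 48 h. For T05H10.3 the log2 change was -4.17 ± 0.23 (adjusted p = 3.4e-12). In T05H10.3, cut-3 and col-165 library 1 was lowest and library 4 highest at 8 h. The gene dsl-2 (chromosome IV, 1202651 to 1204970, minus strand), for a member of the Delta and Serrate family of Notch ligands, measured 45.8, 57.0, 38.2 and 36.0 in the libraries at 8 h and 3.40, 1.76, 2.11 and 2.64 at 48 h. For dsl-2 the log2 change was -3.92 ± 0.26 (adjusted p = 4.3e-11). The F-box gene fbxb-17 (chromosome II, 1676388 to 1677439, plus strand) measured 13.7, 19.7, 13.1 and 15.2 in the libraries at 8 h and 0.532, 0.675, 0.767 and 0.758 at 48 h. For fbxb-17 the log2 change was -3.74 ± 0.20 (adjusted p = 1.2e-12). The gene dct-13 (chromosome IV, 17024500 to 17025117, minus strand) measured 7.32, 7.61, 6.32 and 5.85 in the libraries at 8 h and 0.168, 0, 0.264 and 0.287 at 48 h. For dct-13 the log2 change was -3.43 ± 0.24 (adjusted p = 1.2e-10). Close by on the same strand, Y116A8C.19 (chromosome IV, 17039055 to 17039645, minus strand) measured 7.58, 9.32, 7.83 and 6.14 in the libraries at 8 h and 0.364, 0.214, 0 and 0.143 at 48 h. For Y116A8C.19 the log2 change was -3.61 ± 0.30 (adjusted p = 1.5e-09). These neighbours were alike in level in every library at 8 h and close to 0 at 48 h. C06E7.88 (chromosome IV, 5865858 to 5867289, minus strand) fell from 9 ± 0.998 to 0.324 ± 0.147 and F56F4.8 (chromosome I, 6149197 to 6150491, plus strand) from 6.31 ± 0.949 to 0.139 ± 0.078. All 20 calls held in each alternative setting in which the gene was tested, which was 18 settings for 19 of the genes and 17 for col-73, which did not pass the filter at an RPKM of 5. The 20 genes were chosen as the largest changes in these same libraries, so nothing is read from calls that held.

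**Figure D3:**
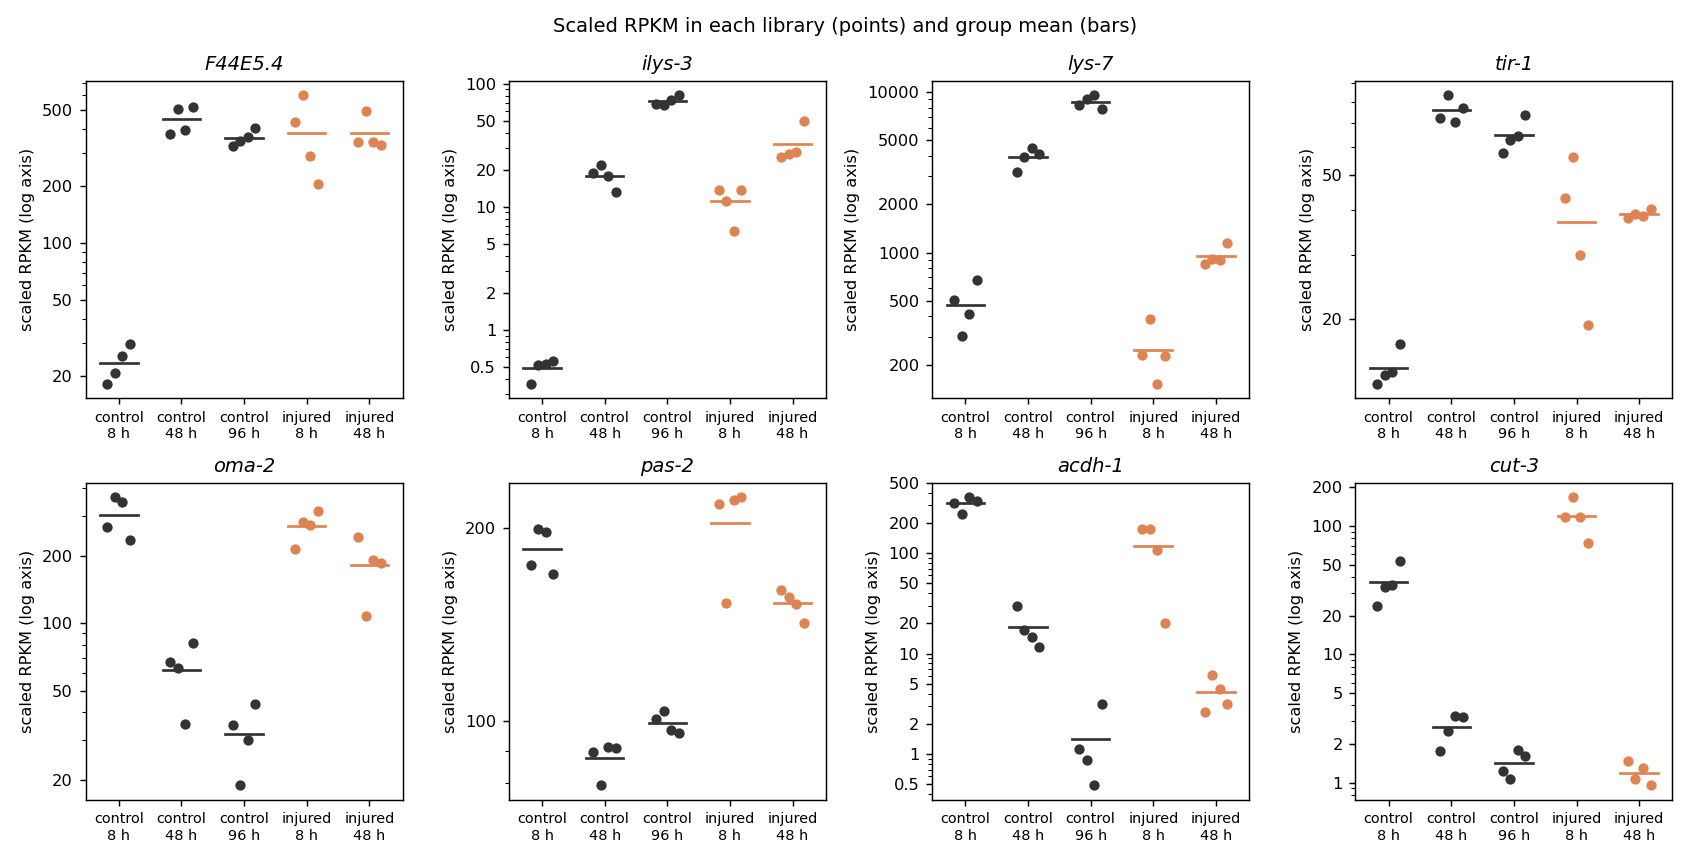
Scaled RPKM (log axis, a different range in each panel) of 8 genes in each library (points) with the group mean (bars), for uninjured controls at 8, 48 and 96 h (black) and injured worms at 8 and 48 h (orange). The top row holds genes higher and the bottom row genes lower in controls at 48 h than at 8 h. F44E5.4 stood at 18.3 to 29.6 in controls at 8 h, whereas injured worms at 8 h were at 204 to 599.

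From 48 to 96 h fewer genes passed in the controls. Of the features tested 985 (6.65%) were higher and 1584 (10.7%) lower at 96 h. These counts were 618 (4.17%) and 656 (4.43%) without control 48 h library 4, and they rest on the same 48 h libraries as the comparison above, so the steps are given side by side and no relation between them is drawn. The lysozyme gene ilys-3 rose further, to 68.6, 66.6, 74.2 and 80.3 at 96 h (log2 change 2.00, adjusted p = 7.8e-06), and lys-7 to 8351, 9102, 9527 and 7874 (1.15, adjusted p = 0.0027). The gene acdh-1 fell further, to 1.11, 0.877, 0.490 and 3.17 (-3.39, adjusted p = 5.8e-05), as did vit-4, to 283, 166, 278 and 202 (-2.06, adjusted p = 0.002). F44E5.4 measured 325, 346, 361 and 405 at 96 h and did not pass (-0.31, adjusted p = 0.37). Cuticle collagens were lower at 96 h in 84 of 136 cases and higher in 3, 75 and 2 without library 4. The oocyte RNA-binding protein list was lower in 9 of 18 cases, and in 0 without library 4 (median change -0.72 with it). At an unadjusted p under 0.05 that count without library 4 was 10. Replication genes were lower in 16 of 24 cases, 2 without library 4. No proteasome gene passed limma's test from 48 to 96 h, with or without library 4, and 0 had an unadjusted p under 0.05. The median change of that list was 0.00.

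The injured worms of the same interval give a second set of libraries aged from 8 to 48 h. In them 2176 features (14.7%) were higher and 2577 (17.4%) lower at 48 h. The difference of the changes, injured minus control, passed limma's test of the interaction for 6199 features (41.8%), above 0 for 2953 (19.9%) and below 0 for 3246 (21.9%). For genes such as F44E5.4 the injured libraries at 8 h already lay outside the range of the controls, so a difference of the changes mixes both times. Injured 8 h libraries 2 and 4 also held over 5% of reads on rRNA. Without the 4 libraries over that limit the counts were 2846 (19.3%) above 0 and 2792 (18.9%) below.

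The fall of germline transcripts was larger in the uninjured worms. All 18 oocyte RNA-binding protein genes had a difference above 0, also without the libraries high in rRNA, and 1 of 18 fell in injured worms. The oocyte gene oma-2 measured 215, 283, 273 and 318 in injured libraries at 8 h and 243, 108, 191 and 185 at 48 h (change -0.63, adjusted p = 0.076; difference 1.70, adjusted p = 0.0012). At 48 h each injured library stood above the control libraries, whose highest was 81.2. The RNAi target cdc-25.1 also stood higher in injured worms at 48 h. In the values as deposited it measured 68.59, 141.14, 91.28 and 65.9 there, against 39.1, 16.53, 10.55 and 14.68 in controls. Without scaling the gap is overstated. The factor was 0.488 in control 48 h library 4 and 1.21 to 1.27 in the injured 48 h libraries. Scaled control values of cdc-25.1 are given above with the markers. At 8 h, also as deposited, cdc-25.1 measured 27.27, 18.38, 25.7 and 97.63 in injured worms, against 60.22, 44.72, 24.83 and 17.75 in controls. The part of the cdc-25.1 level in the germline differences was not tested. The meiotic list had a difference above 0 in 20 of 22 cases, the replication list in 18 of 24 and the eggshell list in 12 of 15. Proteasome genes fell in 27 of 32 cases in injured worms, with a median of -0.43 against -0.80 in controls, and the difference was above 0 in 17 of 32, 12 without the libraries high in rRNA. For the respiratory chain it was above 0 in 22 of 37.

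Several somatic and stress lists had differences below 0. Body wall muscle genes fell in 30 of 34 cases in injured worms and the difference was below 0 in 28. For basement membrane genes it was below 0 in 15 of 20, and lam-1 measured 34.4, 54.3, 28.3 and 28.1 in injured worms at 8 h and 19.6, 12.9, 18.3 and 23.6 at 48 h (difference -2.50, adjusted p = 2.7e-07). Heat shock genes had a difference below 0 in 13 of 21 cases. F44E5.4 measured 436, 599, 287 and 204 in injured worms at 8 h and 343, 498, 341 and 329.7 at 48 h (difference -4.15, adjusted p = 1.0e-08), and the control libraries of 48 h, described above, lay within the range of injured worms at 8 h. The gene hsp-16.2 measured 298, 165, 221 and 274 in injured worms at 8 h and 135, 267, 165 and 118 at 48 h (difference -3.77, adjusted p = 1.3e-08). The gene fos-1 measured 53.2, 54.2, 34.1 and 22 at 8 h and 36.4, 36.6, 36.9 and 37.3 at 48 h in injured worms, with more spread at 8 h than at 48 h (difference -1.14, adjusted p = 0.0014). In the same libraries vhp-1 measured 130.2, 134, 89.4 and 51 at 8 h and 117, 131, 118.8 and 120.3 at 48 h (difference -1.15, adjusted p = 0.0018). The gene lys-3 fell in both, from 153, 154, 128 and 159.6 to 56.6, 85.2, 56.6 and 55.1 in injured worms, where it stood higher than in controls at both times (difference 0.06, adjusted p = 0.85). All 6 vitellogenins fell in injured worms, against 3 in controls, and the difference passed for vit-2, vit-4 and vit-5, of which 1 passed without control 48 h library 4. Neuropeptide genes of the FMRFamide-like family rose in 11 of 30 cases in injured worms and in 30 in controls, and the difference was below 0 in 9, 5 without the libraries high in rRNA.

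**Figure D4:**
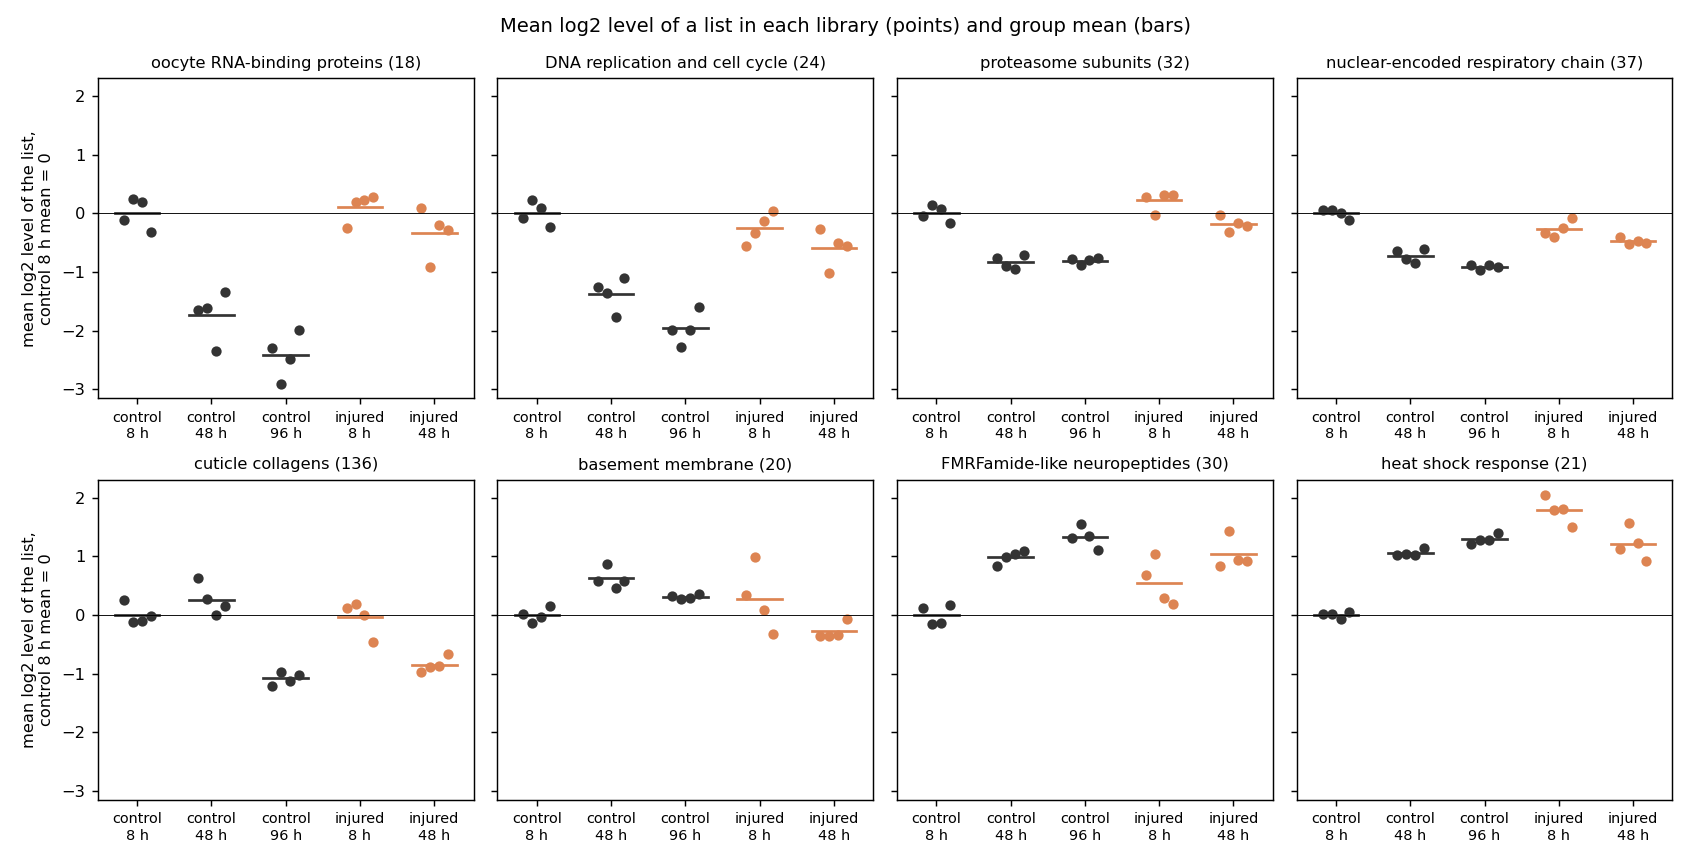
Mean log2(scaled RPKM + 0.5) over the tested genes of 8 lists in each library (points) with the group mean (bars), set to 0 at the mean of the control 8 h libraries, for uninjured controls at 8, 48 and 96 h (black) and injured worms at 8 and 48 h (orange). Numbers in the panel titles count genes. In controls the oocyte list, with a median change of -1.69, and the proteasome list, with one of -0.80, stood apart from their 8 h libraries at 48 h, while the injured worms changed by medians of -0.41 and -0.43.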

How the data were processed

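Poly(A) RNA of whole C. elegans worms was sequenced with paired-end reads in 6 groups of 4 libraries, and the deposited table holds 46739 features in 24 columns. The RPKM values are as the authors deposited them, computed per gene with CLC software on genome build ce11. How strand and multiply mapped reads were treated is not given in the sources used here. A further 6 columns hold the authors' p-values for their own comparisons and were not used. Columns were assigned to groups by their block headers.

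RPKM values were divided by median-of-ratios factors (14870 features above 0 in all libraries) and tested as log2(scaled RPKM + 0.5) where RPKM reached 1 in at least 4 libraries (14813 features). The 6 group means, which share an estimate of the spread, were fitted with limma 3.58.1 in R 4.3.3 (empirical Bayes with a mean trend and robust estimation), with Benjamini-Hochberg adjustment over all features tested. The fit was tested on simulated data. Genes followed by the study were also compared by two-sided exact permutation. Features were matched to Ensembl gene models of the same build by symbol, sequence name or gene ID (45426 matched), and 11 features named as calendar dates (9 tested) were not traced to genes.

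Named genes were the 10 largest rises and 10 largest falls among changed features with a mean of at least 5 in the higher group and no overlap, the 6 vitellogenins, fos-1, lys-3, vhp-1, cat-2, cdc-25.1, and up to 4 members of each list with the smallest p in each direction. Not every gene that this rule names is described. In addition act-5, vha-6, unc-119, sod-3 and med-1 were named after their values were seen. The gene lists, the markers and the comparison itself were chosen with earlier results of these data known. The 18 alternatives covered scaling (as deposited, trimmed mean of M-values, rRNA genes removed), pseudocounts of 0.1 and 1, no filter or a minimum of 5, the 8 control libraries alone, libraries over 5% rRNA left out, array quality weights, and each of the 8 libraries left out in turn. Figures were drawn with matplotlib 3.10.9.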

Additional observations from a re-analysis of the deposited data

Results flagged for a closer look

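Within groups of 4, a value counted as standing apart when its gap to the nearest other library as a share of the group's range exceeded Dixon's 95% critical value, which chance gives in about 1 in 20 groups, and 4 of 66 groups did so. In control 48 h the share of reads on rRNA gave 0.844, from library 4. F01G10.6 gave 0.884 in control 48 h, where library 3 was highest. vhp-1 gave 0.9 in control 8 h, with library 4 highest, and vit-4 gave 0.841 in control 8 h, with library 2 lowest.

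For 22 of 31 genes (the 20 largest changes, the vitellogenins and the genes followed by the study) the change from 8 to 48 h differed between injured and uninjured worms by limma's test of the difference, against 41.8% of all features tested. The largest changes were chosen by the control change that the difference subtracts, so nothing is read from that share or from the signs of their differences. The values below are the injured minus the control change on the log2 scale. Among genes that rose in controls the difference was -4.15 for F44E5.4, -3.88 for F44E5.5, -3.14 for C25F9.16, -2.71 for ilys-3, -2.59 for col-73, -2.06 for F20E11.17, -1.19 for F01G10.6, -1.15 for vhp-1, -1.14 for fos-1 and -0.628 for K09F6.13. Among genes that fell in controls it was below 0 for cut-3 (-2.6), T05H10.3 (-1.86), col-165 (-1.8) and C06E7.88 (-1.01), which fell further in injured worms. It was above 0 for F56F4.8 (2.17), Y116A8C.19 (2.05), dct-13 (1.99), dsl-2 (1.76) and fbxb-17 (1.49). For the vitellogenins it was -1.59 in vit-4, -1.55 in vit-2 and -1.44 in vit-5. Libraries 2 and 4 of the injured group at 8 h held over 5% rRNA reads, and their part in these differences was not tested gene by gene.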

How the results depend on the processing

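Over the 18 alternatives the count of changed features between 8 and 48 h lay between 7215 (values as deposited) and 10618 (array quality weights), against 9310, and leaving out single libraries gave 8423 to 9229. The count of risers moved by over 1.5 times in 1 setting, to 2778 in the values as deposited. Trimmed mean scaling put the median of all features at -0.05, lower by 0.12 than the main value, and 43.7% of calls upwards. Of the calls, 76.4% to 99.4% were shared in the same direction. For 349 of 408 named genes the call held under each alternative, and 59 lost or gained it under at least 1. Most of the 408 were named for a large change or a small p in these data, so that share is no support for them. No change of a named gene reversed its sign. The median of all features lay between -0.09 (values as deposited) and 0.14 (rRNA genes removed), on either side of 0. In the values as deposited the balance of calls turned from more higher to more lower over all features and in the molting, hedgehog-related, body wall muscle, hypoxia, autophagy, caenopore and p38 lists. The comparison of 96 with 48 h was less stable, with 2569 changed features against 752 without the libraries over 5% rRNA, 6733 with array quality weights, and 1274 (without control 48 h library 4) to 3296 (without library 3) with single libraries left out; it was 1325 without library 1 and 1455 without library 2. No paired analysis was possible because the columns carry no replicate number, so the fit with such a block was not run. The search of promoters for motifs was not run, since no promoter sequences were used here. Precision is limited by 4 libraries a group, by the library rich in rRNA, and by levels of a few reads in the lowest genes.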
